A study of Mus musculus with 6 samples.

Results

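Apoptotic cell uptake, the recognition and engulfment of dying cells by phagocytes, was followed through 9 genes on expression arrays of cultured mouse peritoneal macrophages: the receptors Axl, Mertk, Tyro3, Timd4 and Lrp1, the bridging proteins Gas6, Pros1 and Mfge8, and the engulfment adaptor Elmo1. The genes were chosen for their roles, with earlier results of these data known, and each of the 9 was represented by 1 probe that the platform annotation assigns to that gene alone, out of 19935 genes measured by such probes. The cells came from C57BL/6 mice and were grown in medium with serum. They were left untreated (control), exposed for 24 h to poly I:C at 2 ug/mL, or exposed for 24 h to PAM at 1 ug/mL, with 2 arrays in each group. Poly I:C is a synthetic RNA duplex that activates the receptor TLR3, and PAM is a lipopeptide that activates TLR2. The descriptions of the PAM samples call the compound PAMCSK3 on one array and PAMCSK4 on the other, and a time in culture is given only for the treated cells. Not given in the sources used here were the age and sex of the mice and whether the arrays of a group stand for different mice or cultures, so the p-values cover the spread between these arrays, which may be technical. The series was designed to find genes that rise with the TLR3 ligand and fall with the TLR2 ligand.

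A dying cell exposes phosphatidylserine, a lipid normally kept on the inner face of the membrane. Phagocytes bind it directly, through receptors such as Timd4, or through secreted bridges: Gas6 and protein S (the product of Pros1) link it to the receptor tyrosine kinases Tyro3, Axl and Mertk, known together as the TAM receptors, and Mfge8 links it to integrins. Inside the cell, Elmo1 works with Dock1 to switch on the GTPase Rac, which drives the actin movements of engulfment. Resident peritoneal macrophages are known for strong uptake of apoptotic cells through Timd4 and Mertk.

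The values are log2 values in which the median of each probe over the 6 arrays had been set to 0. They show differences between arrays and hold no level, so members cannot be compared by abundance. Differences are given as log2 difference ± SE from limma (n = 2 arrays per group), adjusted over all 19935 genes and called at an adjusted p under 0.05, with the deposited scale taken as log2 for every fold. Fine steps in the numbers were used to infer which probes had been at 8 or more on every array before the median was removed. By this step check 6 of the 9 probes had been, as had 94.2% of 206 ribosomal protein probes and 1.37% of 1023 olfactory receptor probes. A probe below 8 can show such steps by coincidence, so the check describes sets of probes and does not prove the level of a single gene. Below, at 8 or above means passing this check. The other probes were those of Tyro3, Gas6 and Timd4. Of 7 measured macrophage markers, 5 (Adgre1, Csf1r, Cd68, Itgam and Lyz2) lay at 8 or above in this way, and none of 5 B cell, 6 mast cell and 5 dendritic cell markers did. Among the other cell types, 1 of 7 T and NK cell markers (Cd8a), 1 of 7 neutrophil markers (Mmp8) and 3 of 8 mesothelial and fibroblast markers (Col1a1, Col3a1 and Dcn) did.

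With poly I:C, 8 of the 9 genes changed against control, 3 upward (Axl, Mertk and Timd4) and 5 downward (Gas6, Pros1, Mfge8, Lrp1 and Elmo1). Over all genes, 30.4% were called in this comparison, 12.1% higher and 18.2% lower. With PAM, 7 of the 9 changed, where the background was 25.0%. Of these, 1 was higher (Timd4; 11.0% of all genes were called higher) and 6 were lower (Axl, Mertk, Gas6, Pros1, Lrp1 and Elmo1; 14.0% of all genes). Between the ligands 6 of the 9 differed, against 28.7% of all genes: Axl, Mertk and Timd4 were higher with poly I:C (12.9% of all genes), and Pros1, Mfge8 and Lrp1 were lower (15.8% of all genes). At least 2-fold changes with poly I:C were the increases of Axl and Timd4 (2.77% of all genes rose so far) and the decreases of Gas6, Pros1, Lrp1 and Elmo1 (2.05%). With PAM they were the increase of Timd4 (2.27%) and the decreases of Mertk, Gas6, Pros1 and Elmo1 (1.94%), and between the ligands the higher values of Axl, Mertk and Timd4 (2.59%) and the lower value of Pros1 (2.38%). The arrays of the groups compared did not overlap for 8 of the 9 genes with poly I:C, 8 with PAM and 6 between the ligands, where 59.1%, 55.7% and 61.2% of all genes did not overlap. The median difference of the 9 genes was -0.87 with poly I:C and -0.81 with PAM, beside medians of 0.01 and 0.00 over all genes. Calls were more common in a separate fit of the 5819 genes at 8 or above on all arrays. There 66.9% were called with poly I:C, 59.6% with PAM and 66.2% between the ligands. The separate fit estimated the spread from these genes alone. For the same poly I:C difference of 3.31, Axl had an adjusted p of 1.34e-19 there and 2.26e-09 in the main fit (limma). The share of these genes called in the main fit was not counted. In the separate fit, which holds 6 of the 9 members, 6, 6 and 5 of them were called, so a member passing is not in itself unusual there. Each comparison shares a group of arrays with each of the others, so their counts are not independent of each other.

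**Figure D1:**
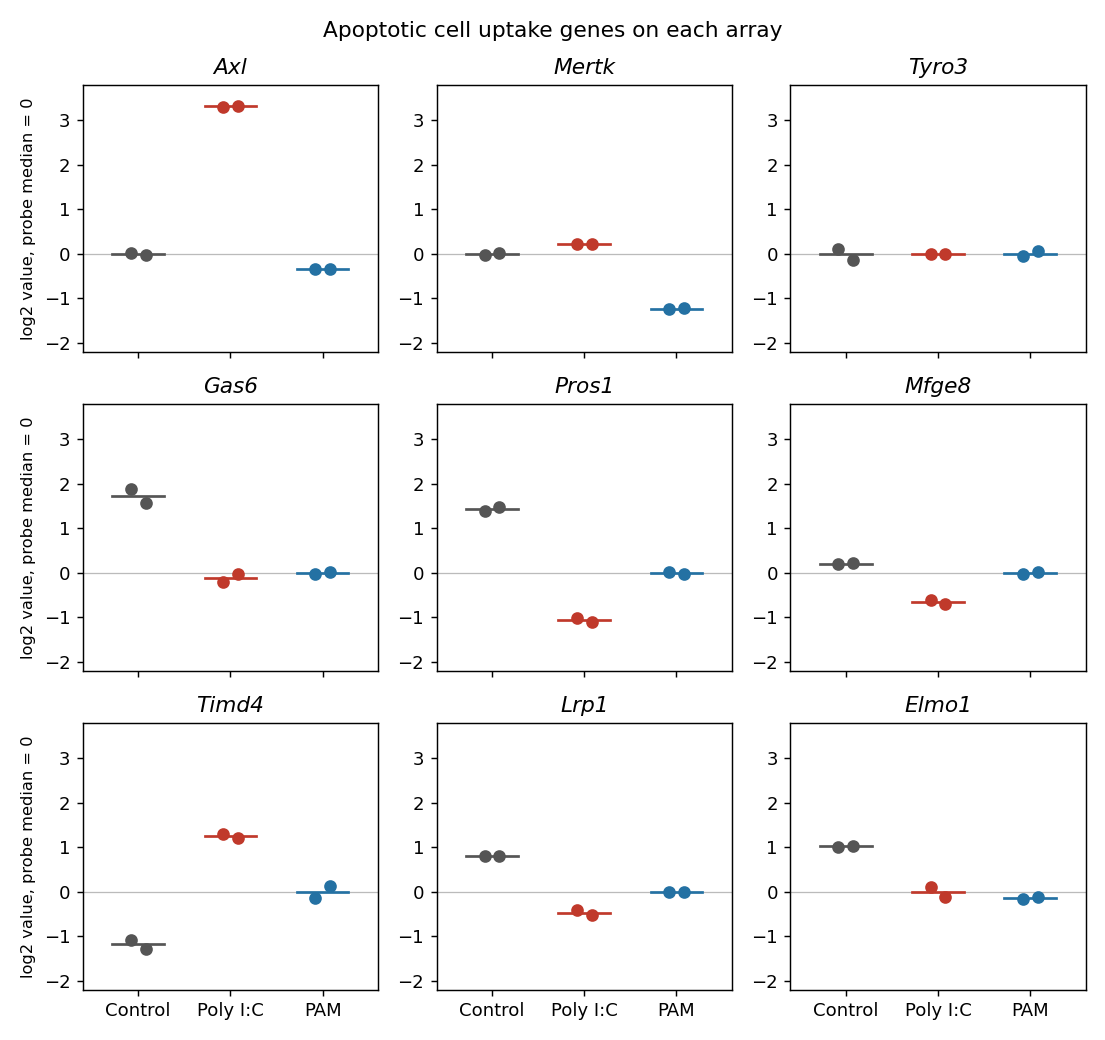
Values of the 9 genes on each of the 6 arrays (log2, the median of each probe over the arrays set to 0). Points are arrays, horizontal lines are group means (n = 2), and all panels share one vertical scale. Axl stands apart on the poly I:C arrays at 3.30 and 3.33, Mertk on the PAM arrays at -1.25 and -1.21, and Gas6 and Pros1 are highest on the control arrays.

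Axl encodes the TAM receptor that is bound by Gas6 and not by protein S. Its values were 0.03 and -0.03 on the control arrays, 3.30 and 3.33 on the poly I:C arrays, and -0.33 and -0.34 on the PAM arrays. The poly I:C arrays stood far above the rest, and the PAM arrays lay just below the controls without overlap. Axl rose with poly I:C by 3.31 ± 0.06, or 9.94-fold (adjusted p = 2.26e-09, limma), and this increase ranked 83 of 19935 genes. With PAM it fell by 0.34 ± 0.06 on the log2 scale, or 1.26-fold (adjusted p = 0.00395, limma). The ligands differed by 3.65 ± 0.06, or 12.6-fold (adjusted p = 2.12e-09, limma), which ranked 38 from the top. The genes whose 6 array values lay nearest to those of Axl were Ifi27l2a, Sp140 and BC147527, at Euclidean distances of 0.24, 0.33 and 0.44 log2 units.

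Mertk encodes the TAM receptor best known for apoptotic cell uptake by resident macrophages, and it can be engaged by Gas6 and by protein S. Its values were -0.03 and 0.03 on the control arrays, 0.23 and 0.22 on the poly I:C arrays, and -1.25 and -1.21 on the PAM arrays. Here the PAM arrays were the ones that stood apart, well below the rest. With PAM Mertk fell by 1.23 ± 0.06 on the log2 scale, or 2.35-fold (adjusted p = 1.05e-06, limma), the 241st lowest difference of all genes. With poly I:C it rose slightly, by 0.22 ± 0.06, or 1.17-fold (adjusted p = 0.0255, limma). That small increase lost its call without control replicate 1 (adjusted p = 0.0841), without poly I:C replicate 1 (0.1) and without poly I:C replicate 2 (0.103). Between the ligands Mertk was 2.74-fold higher with poly I:C, by 1.46 ± 0.06 (adjusted p = 2.71e-07, limma). The genes nearest to it over the 6 arrays were Knop1, the sterol exporter gene Abcg1 and Lat2, at distances of 0.14, 0.14 and 0.16.

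Axl and Mertk were thus both called higher with poly I:C and lower with PAM, the response the series looked for, which was found for 270 of 19935 genes (1.35%). The sizes were unequal: the larger change of Axl was the increase with poly I:C, and that of Mertk was the decrease with PAM. The gap between the members was not tested. Of the pair, only Axl kept both calls in every fit without 1 array. Neither change was at least 2-fold in both directions.

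Tyro3, the remaining TAM receptor, did not pass in any comparison. Its values were 0.11 and -0.13 on the control arrays, 0.00 on both poly I:C arrays, and -0.05 and 0.06 on the PAM arrays, so that the groups overlapped. The difference was 0.01 ± 0.09 with poly I:C (95% interval -0.19 to 0.21) and 0.01 ± 0.09 with PAM (-0.19 to 0.21), and its sign turned in some fits without 1 array. The Tyro3 probe was not shown to lie at 8 or above, and its signal over background is unknown.

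Gas6 encodes the vitamin K-dependent ligand of the whole TAM family. Its values were 1.88 and 1.58 on the control arrays, -0.21 and -0.03 on the poly I:C arrays, and -0.03 and 0.03 on the PAM arrays. The controls stood high and the treated groups lay together. Gas6 fell by 1.85 ± 0.11 on the log2 scale with poly I:C, or 3.6-fold (adjusted p = 1.65e-06, limma), and by 1.73 ± 0.11 with PAM, or 3.32-fold (adjusted p = 2.93e-06, limma). Counted from the largest decrease, Gas6 ranked 83 with poly I:C and 107 with PAM. The ligands did not differ by the test (-0.12 ± 0.11, 95% interval -0.36 to 0.12). The integrin gene Itgb5, Ccl6 and Agmo had the nearest values, at distances of 0.37, 0.37 and 0.43.

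Pros1 encodes protein S, a ligand of Tyro3 and Mertk that also acts as an anticoagulant. Its values were 1.40 and 1.49 on the control arrays, -1.01 and -1.10 on the poly I:C arrays, and 0.02 and -0.02 on the PAM arrays. The groups formed 3 separate steps, with the controls highest and poly I:C lowest. With poly I:C Pros1 fell by 2.50 ± 0.07 on the log2 scale, or 5.65-fold (adjusted p = 1.48e-08, limma), the 29th lowest difference of all genes. With PAM it fell by 1.44 ± 0.07, or 2.72-fold (adjusted p = 6.18e-07, limma), and the step between the ligands was -1.06 ± 0.07 (adjusted p = 3.67e-06, limma). Galnt9, Myc and Gsn lay nearest, at 0.29, 0.30 and 0.50.

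Mfge8 encodes a secreted protein that binds phosphatidylserine and the alpha v integrins. Its values were 0.19 and 0.22 on the control arrays, -0.62 and -0.71 on the poly I:C arrays, and -0.03 and 0.03 on the PAM arrays. With poly I:C it fell by 0.87 ± 0.07 on the log2 scale, or 1.83-fold (adjusted p = 1.2e-05, limma), and its poly I:C values were below those of PAM (-0.67 ± 0.07, adjusted p = 6.59e-05, limma). The PAM arrays lay below the controls without overlap, as the arrays of 55.7% of all genes did not overlap, and the difference of -0.20 ± 0.07 missed the threshold (adjusted p = 0.0566, limma; 95% interval -0.36 to -0.05). It passed when only the 5819 genes at 8 or above were tested (adjusted p = 0.0088, limma).

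All 3 bridging genes were therefore lower with poly I:C, and Gas6 and Pros1 also with PAM. Mesothelial cells and fibroblasts can make these proteins too, and in a bulk culture fewer cells of a type and less RNA per cell cannot be told apart. Of 8 measured markers of those cells, 4 were lower with poly I:C (18.2% of all genes): Upk3b (-0.40), Col1a1 (-0.36), Col3a1 (-0.69) and Lum (-0.23). With PAM, Upk3b (-0.45) and Lum (-0.23) were lower (14.0% of all genes) and Dcn was higher (0.95, 11.0% of all genes). Upk3b and Lum were not shown to lie at 8 or above. The mean of the 8 markers was 0.23 and -0.03 on the control arrays, -0.16 and -0.12 on the poly I:C arrays, and 0.11 and 0.09 on the PAM arrays. The part of these cells in the bridging gene values was not tested.

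Timd4 encodes a receptor that binds phosphatidylserine directly and marks resident peritoneal macrophages. Its values were -1.08 and -1.28 on the control arrays, 1.31 and 1.22 on the poly I:C arrays, and -0.13 and 0.13 on the PAM arrays. The groups formed 3 steps again, here with the controls lowest. Timd4 was the member that rose with both ligands, by 2.44 ± 0.10 with poly I:C, or 5.44-fold (adjusted p = 2.01e-07, limma), and by 1.18 ± 0.10 with PAM, or 2.26-fold (adjusted p = 3e-05, limma). The increases ranked 164 and 372 among all genes. Between the ligands the difference was 1.27 ± 0.10 (adjusted p = 1.5e-05, limma). Tent5c, Lgals3bp and Ccrl2 had the nearest values, at 0.23, 0.29 and 0.30. Other macrophage markers moved in differing directions beside it. Adgre1, a surface antigen of mature macrophages, fell with poly I:C (-0.97) and rose with PAM (1.38), Itgam was lower with both (-1.49 and -0.49), and Gata6, which controls the resident peritoneal identity, was lower with both (-0.67 and -0.87). Icam2 rose with poly I:C (0.63) and did not pass with PAM (-0.22), and Csf1r rose with PAM (0.74) and did not pass with poly I:C (-0.17). Cd68 (0.13 and -0.14) and Lyz2 (-0.13 and 0.19) did not pass with either ligand.

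Lrp1 encodes a large endocytic receptor that takes up many ligands and takes part in the recognition of calreticulin on dying cells. Its values were 0.80 and 0.81 on the control arrays, -0.41 and -0.53 on the poly I:C arrays, and 0.00 on both PAM arrays. It fell by 1.28 ± 0.07 on the log2 scale with poly I:C, or 2.42-fold (adjusted p = 1.06e-06, limma), and by 0.81 ± 0.07 with PAM, or 1.75-fold (adjusted p = 2.51e-05, limma). The arrays kept the order control, PAM, poly I:C, and the ligands differed by -0.47 ± 0.07 (adjusted p = 0.000691, limma). Ptprs, Mmd and Psd3 lay nearest, at 0.05, 0.13 and 0.14.

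Elmo1 encodes the adaptor that activates Rac together with Dock1. Its values were 1.02 and 1.04 on the control arrays, 0.12 and -0.12 on the poly I:C arrays, and -0.15 and -0.12 on the PAM arrays. It fell by 1.03 ± 0.08 on the log2 scale with poly I:C, or 2.05-fold (adjusted p = 1.62e-05, limma), and by 1.16 ± 0.08 with PAM, or 2.24-fold (adjusted p = 8.5e-06, limma). The treated groups overlapped, and their difference of 0.13 ± 0.08 did not pass (95% interval -0.06 to 0.32). Cgnl1, Mindy1 and Slc12a7 had the nearest values, at 0.11, 0.13 and 0.18.

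**Figure D2:**
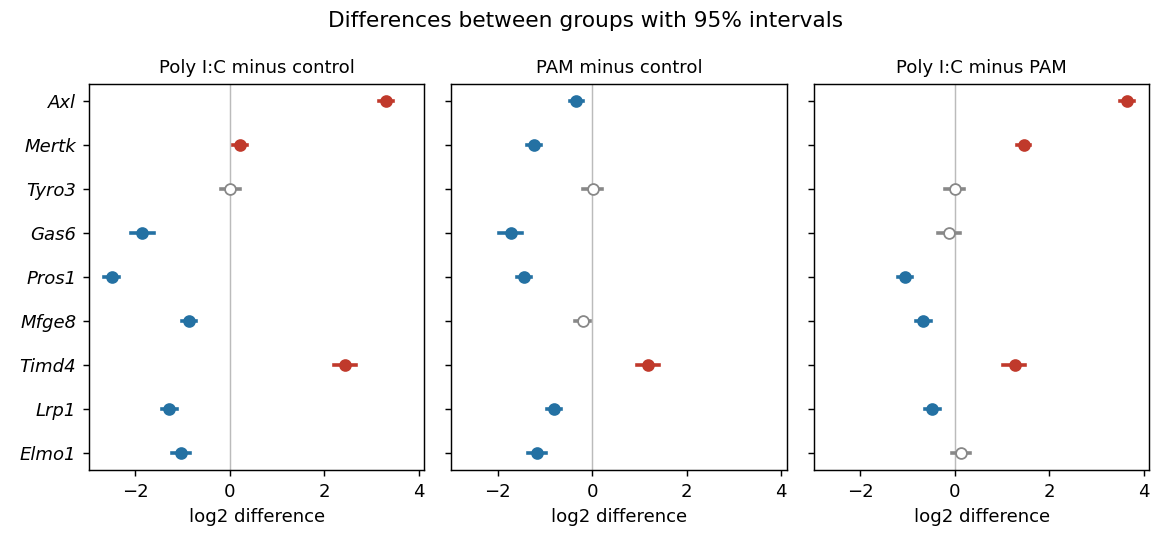
Log2 differences of the 9 genes in the 3 comparisons. Points are limma estimates and lines are 95% intervals; red marks genes called higher, blue genes called lower and open grey points genes that did not pass. Tyro3 lies near 0 in every panel, and Gas6 and Elmo1 did not pass between the ligands while each fell with both.

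Promoter windows, from 250 bases before to 50 after an annotated start, were read from RefSeq (GRCm38.p6) for all 9 genes, with 10 windows in all because Elmo1 has 2. The 250 upstream bases are shown for Axl and Timd4, the members that rose most with poly I:C, and for Pros1 and Lrp1, which fell in steps from control through PAM to poly I:C. Capitals mark letters matching TTCNNNGAA, the pattern of a STAT dimer site, which reads alike on both strands.
Axl (chr7:25788734-25788983, minus strand): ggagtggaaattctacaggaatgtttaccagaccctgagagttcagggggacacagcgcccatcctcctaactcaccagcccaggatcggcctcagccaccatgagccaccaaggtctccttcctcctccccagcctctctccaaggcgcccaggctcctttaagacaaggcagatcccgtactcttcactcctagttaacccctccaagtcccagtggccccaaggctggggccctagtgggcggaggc
Timd4 (chr11:46810549-46810798, plus strand): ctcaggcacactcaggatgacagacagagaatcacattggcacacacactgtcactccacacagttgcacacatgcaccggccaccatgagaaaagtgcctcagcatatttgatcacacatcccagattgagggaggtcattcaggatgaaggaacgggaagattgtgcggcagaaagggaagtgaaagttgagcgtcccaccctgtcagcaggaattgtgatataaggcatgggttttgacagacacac
Pros1 (chr16:62854057-62854306, plus strand): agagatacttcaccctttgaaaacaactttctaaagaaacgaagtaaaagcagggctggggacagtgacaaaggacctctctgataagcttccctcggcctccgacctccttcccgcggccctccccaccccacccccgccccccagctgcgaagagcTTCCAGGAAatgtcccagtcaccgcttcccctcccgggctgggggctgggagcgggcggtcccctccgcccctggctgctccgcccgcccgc
Lrp1 (chr10:127621149-127621398, minus strand): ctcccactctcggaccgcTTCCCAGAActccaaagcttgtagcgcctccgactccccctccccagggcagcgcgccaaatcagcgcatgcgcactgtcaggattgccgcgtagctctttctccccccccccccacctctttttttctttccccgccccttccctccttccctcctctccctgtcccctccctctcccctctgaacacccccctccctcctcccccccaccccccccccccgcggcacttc
The match in Pros1 begins at position -92 and that in Lrp1 at position -232 from the start, and the second window of Elmo1 held matches at -74 and -23. Such letters occur in 8.3% of all 32851 windows of this length, so their presence in 3 of the 9 genes is a description and no evidence of a site. The other patterns searched on both strands were GAAA repeated after any 2 bases (the core of the interferon-stimulated response element, in 3.44% of all windows), TGACTCA (an AP-1 site, 5.2%), and the NF-kB pattern of GGGA and TTTCC with either C (0.155%) or A (0.0883%) between them. These patterns were not in any member's window, which says only that those letters are not in these bases. The Axl window held 60.3% G and C with 6 CpG pairs, and the Timd4 window 50.7% with 5. The medians over all windows were 52.7% and 7.

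Other genes of the process were taken from lists of receptors, bridges, engulfment machinery, signals, corpse digestion and shedding proteases, 77 genes of which 75 were measured. With poly I:C 12 rose and 33 fell, where 12.1% and 18.2% of all genes did so, and with PAM 17 rose and 31 fell, beside 11.0% and 14.0% of all genes. The median difference was -0.15 with poly I:C and -0.11 with PAM, beside 0.01 and 0.00 over all genes. The counts of each list are to be read against these shares. They are also to be read against the higher shares in the separate fit of genes at 8 or above, since 45 of the 75 lay there. Between the ligands 21 were called above their PAM value under poly I:C, 22 were called below it and 32 were not called. Of all genes, 12.9% were called above and 15.8% below.

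**Figure D3:**
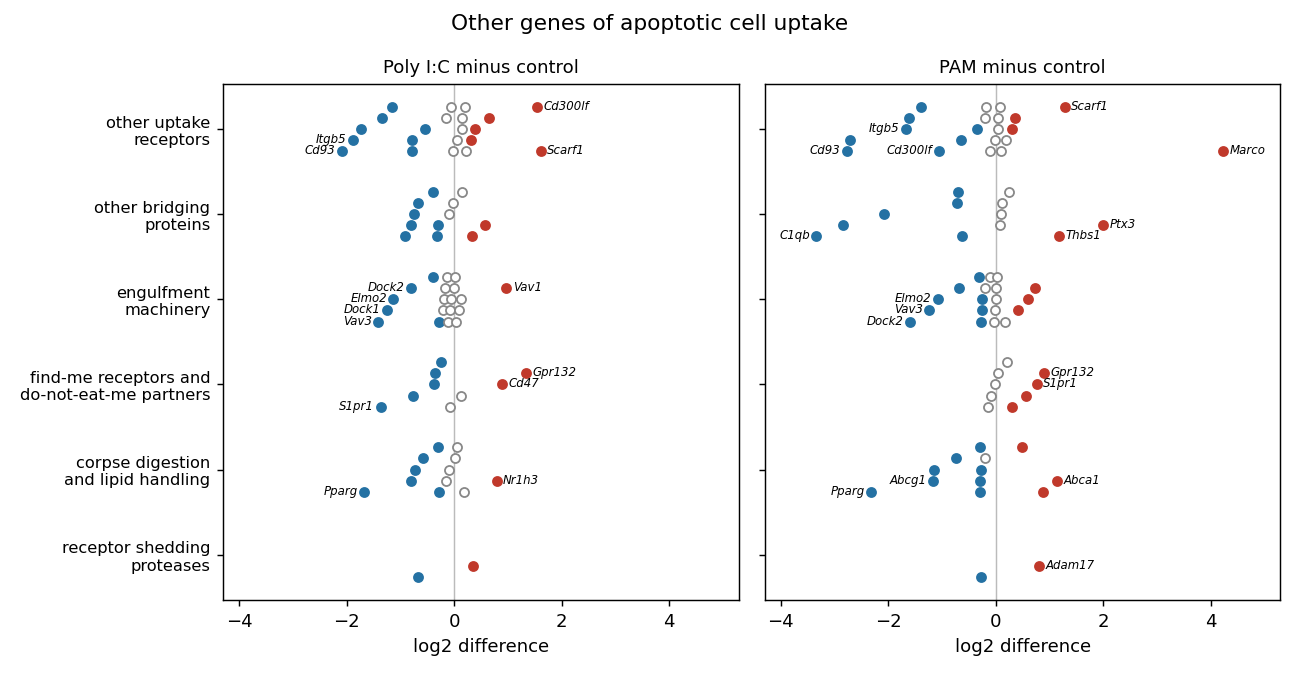
Log2 differences of the 75 other uptake genes with poly I:C and with PAM against control, by list; each point is a gene, red called higher, blue called lower and open grey not passed (limma), and vertical offsets only separate points, with some genes named. The lowest bridging gene with PAM is C1qb at -3.34 and the highest receptor gene is Marco at 4.23.

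Among 21 other uptake receptors, 5 rose and 8 fell with poly I:C (12.1% and 18.2% of all genes), and 4 rose and 8 fell with PAM (11.0% and 14.0%). The integrin subunit genes whose products pair into the receptors for Mfge8 fell beside it with poly I:C. With PAM, Mfge8 itself did not pass. Itgb5 was 1.64 and 1.70 on the control arrays, -0.16 and -0.26 with poly I:C and -0.07 and 0.07 with PAM, and fell with both ligands (-1.88 and -1.67). Itgb3 also fell with both (-1.73 and -1.39), and Itgav fell with poly I:C (-0.54) and did not pass with PAM (-0.19, adjusted p = 0.0541, limma). Cd93 fell most of this list with poly I:C (-2.09) and with PAM (-2.77), and the thrombospondin receptor gene Cd36 was lower with both (-0.79 and -0.65). Scarf1, a scavenger receptor that binds C1q on dying cells, rose with both (1.61 and 1.28). Cd300lf, an immune receptor that binds phosphatidylserine, stood at 0.05 and -0.05 on the control arrays, 1.56 and 1.52 with poly I:C and -1.06 and -1.05 with PAM. It thus rose with poly I:C by 1.54 ± 0.07 and with PAM fell by 1.06 ± 0.07 on the log2 scale, and the ligands differed by 2.60 (adjusted p = 1.37e-08, limma). The scavenger receptor gene Marco was -0.64 and -0.66 on the control arrays, 0.03 and -0.03 with poly I:C and 3.57 and 3.58 with PAM. It rose by 4.23 ± 0.06 with PAM and by 0.65 ± 0.06 with poly I:C (adjusted p = 5.38e-05, limma).

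Of 12 other bridging genes, 2 rose with each ligand (12.1% of all genes with poly I:C, 11.0% with PAM). They were Thbs1 (0.57 with poly I:C, 1.18 with PAM) and Ptx3 (0.33 and 2.00). Of the 12, 7 fell with poly I:C (18.2% of all genes) and 6 with PAM (14.0%). The increase of Ptx3 with poly I:C lost its call without poly I:C replicate 2 (0.26, adjusted p = 0.124, limma). The C1q chain genes, whose product coats dying cells, fell with both ligands, and each was lower with PAM than with poly I:C. C1qb stood at 0.70 and 0.65 on the control arrays, 0.06 and -0.06 with poly I:C, and -2.68 and -2.65 with PAM. C1qa differed from control by -0.39 with poly I:C and -2.08 with PAM, and C1qc by -0.92 and -2.85. The bridging genes differed in which ligand lowered them more: poly I:C values were below PAM values for Pros1 and Mfge8, and the C1q genes were lower with PAM.

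Of 19 genes of the engulfment machinery, 1 rose and 6 fell with poly I:C (12.1% and 18.2% of all genes), and 3 rose and 8 fell with PAM (11.0% and 14.0%). Elmo2, a relative of Elmo1, fell with both ligands (-1.13 and -1.07), as did the exchange factor gene Vav3 (-1.41 and -1.24). Dock1, the partner of Elmo1, was 0.18 and 0.21 on the control arrays, -1.02 and -1.09 with poly I:C and -0.04 and 0.04 with PAM. It fell with poly I:C (-1.25 ± 0.07) and did not pass with PAM (-0.20 ± 0.07, adjusted p = 0.0686, limma), and the ligands differed (-1.06, adjusted p = 3.14e-06, limma). Dock2, the related gene of blood cells, was lower with both (-0.80 and -1.59) and lower with PAM than with poly I:C. Vav1 rose with both (0.97 and 0.60). Of the Rac genes, Rac2 rose with PAM (0.74) and did not pass with poly I:C (-0.17). Rac1 was slightly lower with PAM (-0.25), a call lost without either control array or either PAM array. With poly I:C, Rac1 did not pass (-0.20). In the separate fit of genes at 8 or above, both were called lower with poly I:C (adjusted p = 0.0281 for Rac2 and 0.0111 for Rac1, limma).

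Of 9 receptors for signals from dying cells and partners that restrain uptake, 2 rose and 5 fell with poly I:C (12.1% and 18.2% of all genes), and 4 rose and none fell with PAM by limma, none even at an unadjusted p under 0.05 (11.0% and 14.0%). S1pr1, a receptor for sphingosine 1-phosphate, was lower with poly I:C (-1.37) and higher with PAM (0.76), and the lysophospholipid receptor gene Gpr132 rose with both (1.34 and 0.90). Cd47, which encodes the signal that spares living cells, rose with poly I:C (0.89 as the mean of its probes) and did not pass with PAM (0.05). The Cd47 probe with the smallest poly I:C difference rose by 0.56. Sirpa, the gene of the Cd47 receptor, fell with poly I:C (-0.35) and did not pass with PAM (-0.01).

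Of 12 measured genes of corpse digestion and lipid handling, 1 rose and 6 fell with poly I:C (12.1% and 18.2% of all genes), and 3 rose and 8 fell with PAM (11.0% and 14.0%). Nr1h3, the gene of the sterol sensor LXR alpha, was higher with poly I:C (0.79) and lower with PAM (-0.29), the latter call lost without PAM replicate 1 (adjusted p = 0.0747, limma) and without PAM replicate 2 (0.0504). Abca1 and Abcg1 export cholesterol and parted: Abca1 rose with PAM (1.14) and was lower with poly I:C (-0.30), a call lost without poly I:C replicate 2 (adjusted p = 0.0614, limma). Abcg1 fell with PAM (-1.17) and did not pass with poly I:C (0.18). In the separate fit of genes at 8 or above, Abcg1 was called higher with poly I:C (adjusted p = 0.0199, limma). Pparg, a lipid-sensing nuclear receptor, fell with both (-1.67 and -2.32). Of the proteases, Adam17, known to cleave Mertk from the surface, rose with both ligands (0.36 and 0.81), and rose more with PAM (difference between the ligands -0.45, adjusted p = 0.00072, limma). Adam10 fell with poly I:C (-0.68) and with PAM (-0.27). The call with PAM was lost without control replicate 2, without PAM replicate 1 and without PAM replicate 2 (adjusted p of 0.0898, 0.124 and 0.111, limma). Transcript values do not show how much receptor is cut.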

How the data were processed

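Total RNA was labelled as biotinylated cRNA for Affymetrix arrays, per the labels' protocols. The authors deposited log-scale values of 28815 probes on 6 arrays, taken here as log2; not given in the sources used here were the base, summarization and normalization. Each probe's median had been subtracted (largest remainder 5e-07), so the main fit used no filter on low values and no variance trend. The platform annotation gave 1 gene symbol to 21780 probes, several to 1605 and none to 5430. Single-symbol probes were averaged into 19935 genes; 21689 were found by Entrez identifier in RefSeq and 0 symbols changed. limma 3.58.1 in R 4.3.3 fitted 1 mean per group over all arrays with eBayes (3 residual and 5.68 prior degrees of freedom), with Benjamini-Hochberg adjustment per comparison. The number of arrays limits precision: the median SE was 0.07. The code was tested on simulated data. Figures used matplotlib 3.10.9.

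The 9 members and all gene lists were chosen with earlier results of these data known. Named were all members, their 3 nearest genes where a member's range reached 1, per list and comparison the largest increase and decrease among called genes, and 18 uptake genes always reported. Nr1h2 and Ucp2 were not measured by a single-symbol probe. Alternatives were array centring, variance trend, robust variance, the 4 arrays compared, a replicate block, each array left out, single probes, probe medians, genes at 8 or above, and a 2-fold minimum.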

Additional observations from a re-analysis of the deposited data

How the results depend on the processing

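Of 369 member values under the alternatives, 365 kept direction and side of the threshold or stayed uncalled, 3 lost a call (Mertk with poly I:C) and 1 gained one (Mfge8 with PAM among genes at 8 or above, adjusted p = 0.0088; the cause was not tested). No called value changed sign. Part of this agreement was fixed in advance. Each member has 1 probe, so single probes and probe medians could not change a member's difference. Leaving out an array of the group not compared repeated the fit of only the arrays compared. Such values were counted more than once. With genes at 8 or above, Timd4 was left out, so the members higher with PAM numbered 0 in place of 1. With a 2-fold minimum, 1 member in place of 3 was lower with poly I:C than under PAM, and 0 were higher with poly I:C and lower with PAM. Without 1 array the members with that opposite response numbered 1 to 2, and the loss was that of Mertk without control replicate 1, poly I:C replicate 1 or poly I:C replicate 2. Leaving out 1 array leaves a group with 1 array, which is assumed to vary like the others.

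The replicate numbers did not pair the arrays: deviations of same-numbered arrays correlated at -0.07, 0.15 and -0.01 between groups. With the replicate block, members called numbered 8 with poly I:C, 7 with PAM and 6 between the ligands, as without it, and other uptake genes 45, 48 and 41 in place of 45, 48 and 43. Without levels, signal over background stays unknown for Tyro3, Gas6 and Timd4, and for the other members it rests on the step check. The variance trend was run over centred means, which carry no level.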
